A study of Mus musculus with 4 samples.

Results

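The semaphorin, Slit and ephrin guidance genes were followed through skin tumours of mice given an antibody against netrin-1. They are 60 of the 31054 rows of the count files, found by their symbols in all 4 libraries. The set holds 20 semaphorins, 9 plexins, 2 neuropilins, 3 Slits, 4 Robos, 5 ephrin-As, 3 ephrin-Bs, 9 EphA receptors and 5 EphB receptors. The genes were picked by name and not by a measured value, though earlier results of these data were known at the choice.

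Tumours came from LKPR mice, whose alleles include Lgr5CreER, p53fl/fl and Rosa26-YFP+/+ in both groups. All animals, controls included, were given 4 daily tamoxifen injections of 2.5 mg from postnatal day 28. Tamoxifen turns on Cre in cells that use the Lgr5 promoter, which in skin marks hair follicle stem cells. Cre then switches on yellow fluorescent protein (YFP) and deletes p53 in those cells and their progeny, so other cells of the tumour keep p53. The NP137 group also had intraperitoneal NP137, an antibody that binds netrin-1, given every 2 days at 10 mg/kg, starting 4 weeks after tamoxifen and lasting until death. The labels of the control group list no treatment and name no vehicle. Tumours appeared between 7 and 9 weeks after tamoxifen, so NP137 could start before a tumour was seen, and the sources used here do not give ages at sampling. Live cells of every type were sorted, and 2 NP137 and 2 control libraries were made.

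Guidance genes code for cues and receptors that steer growing axons and vessels and sort cells into compartments. Secreted class 3 semaphorins bind a neuropilin that is paired with a plexin, while most membrane-bound semaphorins bind a plexin directly. Slits are secreted ligands of Robo receptors. Ephrins and Eph receptors both sit in the membrane and signal on cell contact, in either direction. In skin, semaphorins and Eph receptors act on keratinocyte spreading and on vessels, and netrin-1, the target of NP137, is a guidance cue of another family.

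The start regions of 4 genes with large differences between the groups are shown, 2 lower and 2 higher in NP137 tumour cells. They are the 250 bases before the RefSeq start on assembly GRCm38.p6, read 5′ to 3′ on the strand of the gene. Capitals mark CAGGTG, the E-box read by Zeb and Snail proteins, searched on both strands with TGANTCA, the AP-1 motif, and AACCGGTT, the grainyhead motif. The windows lie at chr5:13396534-13396783 on the plus strand for Sema3a, chr9:57939862-57940111 on the plus strand for Sema7a, chr6:42373269-42373518 on the minus strand for Epha1 and chrX:99135811-99136060 on the plus strand for Efnb1. The Sema3a window starts inside the gene as GENCODE M21 draws it, chr5:13125414-13602565.
Sema3a: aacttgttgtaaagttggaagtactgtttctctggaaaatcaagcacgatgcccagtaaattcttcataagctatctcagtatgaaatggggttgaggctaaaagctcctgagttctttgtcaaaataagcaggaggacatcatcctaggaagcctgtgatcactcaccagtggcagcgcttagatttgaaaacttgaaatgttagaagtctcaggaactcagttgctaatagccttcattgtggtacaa
Sema7a: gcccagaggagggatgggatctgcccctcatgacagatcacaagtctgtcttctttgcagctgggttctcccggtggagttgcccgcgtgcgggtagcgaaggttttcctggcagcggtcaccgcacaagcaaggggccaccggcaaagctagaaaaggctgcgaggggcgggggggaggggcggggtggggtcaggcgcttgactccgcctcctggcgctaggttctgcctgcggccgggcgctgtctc
Epha1: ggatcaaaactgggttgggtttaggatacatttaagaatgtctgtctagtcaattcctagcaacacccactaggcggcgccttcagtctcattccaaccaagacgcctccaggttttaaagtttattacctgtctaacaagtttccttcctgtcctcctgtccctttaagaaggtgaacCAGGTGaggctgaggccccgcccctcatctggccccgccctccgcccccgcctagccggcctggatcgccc
Efnb1: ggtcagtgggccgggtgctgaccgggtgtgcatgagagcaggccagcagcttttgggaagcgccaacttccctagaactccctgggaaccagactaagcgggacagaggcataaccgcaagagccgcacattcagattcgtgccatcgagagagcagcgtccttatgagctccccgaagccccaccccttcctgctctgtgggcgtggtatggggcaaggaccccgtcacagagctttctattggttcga
The Epha1 window holds 1 E-box and the other 3 windows hold none of the 3 motifs. Over windows of 300 bases, 69 windows of 53 members were found in the RefSeq table, beside 32851 windows of all genes. The E-box stood in 14.5% of the members' windows and 20.2% of all windows, TGANTCA in 4.35% and 7.81%, and AACCGGTT in 0% and 0.146%.

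Unique molecule (UMI) counts per gene and cell were read, at 69517664 and 149021188 UMIs in NP137 1 and 2 and 88076950 and 73685280 in control 1 and 2. Of these libraries 14205, 14513, 10482 and 5301 cells were used, with medians of 2352, 5196, 4566.5 and 6044 UMIs, in the order NP137 1, NP137 2, control 1, control 2. The cells formed 35 clusters, grouped with the 60 genes left out. In 6 clusters at least 50% of cells had a YFP UMI, from 73.6% to 96.5%, and these are called YFP-positive cells, the recombined tumour lineage. YFP and Cdkn2a together made 1533 and 806 CPM in NP137 and 1923 and 1513 CPM in control. These cells numbered 2981 and 883 cells in NP137 and 4706 and 1143 in control. Other clusters were named from markers of known cell types, with the ending -like, or stayed unnamed and untested. In the 4 files 322 of 57011 barcode strings occur in more than 1 library. NP137 1 stands apart from the other libraries in its sex-linked genes. It had Xist UMIs alone in 27.7% and Y-linked UMIs alone in 16.7% of cells, while NP137 2 and control 1 had almost only Xist and control 2 almost only Y-linked UMIs. Its source was not tested, and the counts for YFP-positive cells are also given without NP137 1. No label ties each library to an animal of its own, and every p below then measures only the spread between these 4 samples.

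Guidance genes differed in the cells that held most of them. Levels are given as counts per 1000000 UMIs (CPM) of the summed cells of a class, compared gene by gene, as a description with no test, since clusters are drawn from the same cells. Of the 60 genes 45 reached a mean of 10 CPM over the 4 libraries in at least 1 of 8 classes, and 15 stayed below it in all 8. The 15 were Sema3e, Sema4f, Sema4g, Sema6c, Plxna3, Plxnb3, Slit1, Robo3, Efna2, Efnb3, Epha5, Epha6, Epha7, Epha8 and Epha10, of which Epha6 had no UMI in these classes. Blood endothelial-like cells had the highest mean for 17 of the 45, and for 14 of those in every library. Fibroblast-like cells led for 8, epithelial-like cells for 7, YFP-positive cells and pericyte or smooth muscle-like cells for 5 each, neutrophil-like cells for 2 and macrophage or monocyte-like cells for 1.

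**Figure D1:**
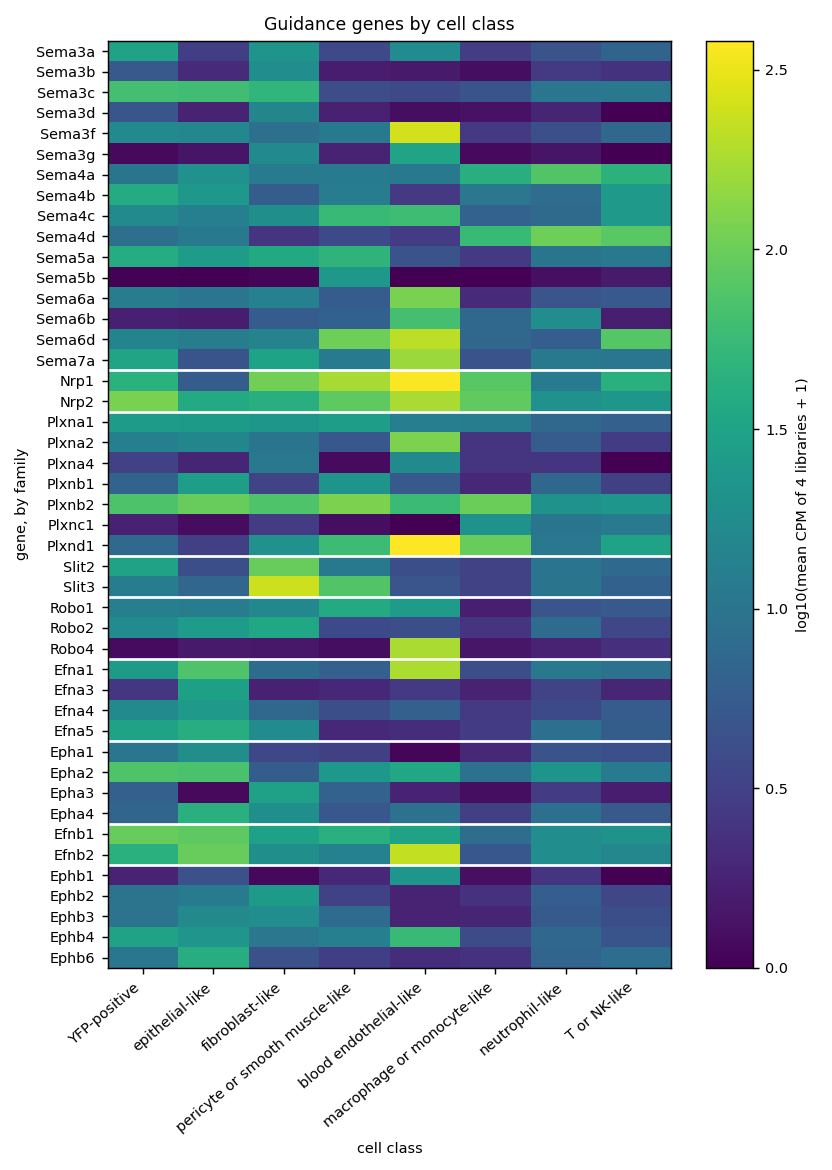
Mean level of the 45 guidance genes that reach 10 CPM in some class, by cell class (columns) and gene, ordered by family (rows, white lines between families). Colour is log10 of the mean CPM of the 4 libraries plus 1. The brightest cells, Plxnd1, Nrp1 and Sema3f, lie in the blood endothelial-like column, and Slit3 in the fibroblast-like one.

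Receptors of the vessel wall were highest in blood endothelial-like cells. Plxnd1, the endothelial receptor of Sema3e, averaged 380 ± 134 CPM there (SD, n = 4 libraries), and at most 95.2 CPM in any other class. Robo4, a Robo found mainly in vessels, averaged 180 ± 45.3 CPM, against 1.21 CPM in the next class. Sema3f, a ligand of neuropilin-2, averaged 253 ± 55.0 CPM, against 16.1 CPM in YFP-positive cells, the next class. Of these 17 genes, 12 had a lowest endothelial library above the highest library of the next class. Nrp2 was not among them, at 145 to 230 CPM in endothelial-like cells and 70.9 to 158 CPM in YFP-positive cells.

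The stroma was where Slit3 was highest. Slit3 averaged 242 ± 40.2 CPM in fibroblast-like cells, above the 74.2 CPM of pericyte or smooth muscle-like cells, and the libraries of these classes did not overlap. Slit2 averaged 95.1 ± 72.6 CPM in fibroblast-like cells and ranged from 25.8 to 191 CPM, which overlaps the 7.15 to 52.5 CPM of YFP-positive cells. Sema5b was high in pericyte or smooth muscle-like cells alone among the 8 classes, at 22.8 ± 11.4 CPM against 0.551 CPM in the next class. Sema4d, which binds plexin-B1 and is made by leukocytes, averaged 102 ± 41.3 CPM in neutrophil-like and 81.4 CPM in T or NK-like cells, with overlapping libraries. The 5 genes led by YFP-positive cells were Efnb1, Epha2, Sema3c, Sema4b and Sema3a, and none of the 5 led there in every library.

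A small cluster of lymphatic endothelial-like cells, 63 and 22 cells in NP137 and 46 and 12 in control, was not tested. It had Nrp2, the co-receptor of lymphatic vessels, at 542 and 459 CPM in NP137 and 718 and 1023 CPM in control. Sema3a, low in most other classes, stood there at 232 and 288 CPM in NP137 and 207 and 375 CPM in control, with overlapping groups.

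In YFP-positive tumour cells some guidance genes stood higher and some lower in NP137 than in control, and none passed edgeR's adjusted test. Sema3a, Sema5a, Sema6a, Sema7a, Nrp1, Slit2 and Slit3 stood lower in NP137, and Efna1, Efnb1, Epha1, Sema4b and Sema4d stood higher. Of the 60 genes 50 passed the filter on low counts, and 36 of these had NP137 libraries outside the range of the control libraries, 14 higher and 22 lower, beside 27.5% and 30.1% of all 14001 genes tested. The 14 higher genes are thus near the share of all genes. With a fold change of at least 2 as well, 8 were higher and 18 lower, beside 10.9% and 16.7% of all genes. The median log2 fold change was -0.56 over the 50 genes and -0.04 over all genes tested, and -0.81 over the genes tested without NP137 1 and -0.29 without control 1. A gene that passed the filter through its control level alone was bound to be lower, so these counts describe the tested genes and not all 60. The 26 tested genes outside the naming rule reached at most 30.1 CPM in any library, the value of Sema4c in NP137 2. The 10 genes that were not tested were Epha5, Epha6, Epha8, Epha10, Plxnb3, Robo3, Robo4, Sema3g, Sema4f and Sema5b.

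By edgeR's quasi-likelihood test no guidance gene passed 0.05 after Benjamini-Hochberg adjustment, while 0.00714% of all genes passed. Their smallest adjusted p was 0.0718. At an unadjusted p under 0.05 there were 24, 9 higher and 15 lower, beside 23.3% of all genes. DESeq2, the other tool, called 7 higher and 12 lower after adjustment, beside 7.19% and 8.96% of all genes. Without NP137 1 edgeR called 4, all lower (Nrp1, Sema3a, Sema5a and Sema7a), and without control 1 it called Sema7a alone. These fits called 2.13% and 1.3% of all genes. The counts past 2-fold were 11 higher and 25 lower without NP137 1, beside 13.4% and 24.9% of all genes, and 16 higher and 16 lower without control 1, beside 16.1% and 19.7%. With NP137 1 left out 18 genes were higher and 29 lower without overlap, of 52 tested, beside 34.4% and 44.6% of all genes. In the same fit 21 had an unadjusted p under 0.05, beside 18.4%, and DESeq2 called 5 higher and 14 lower, beside 4.99% and 8.25%.

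**Figure D2:**
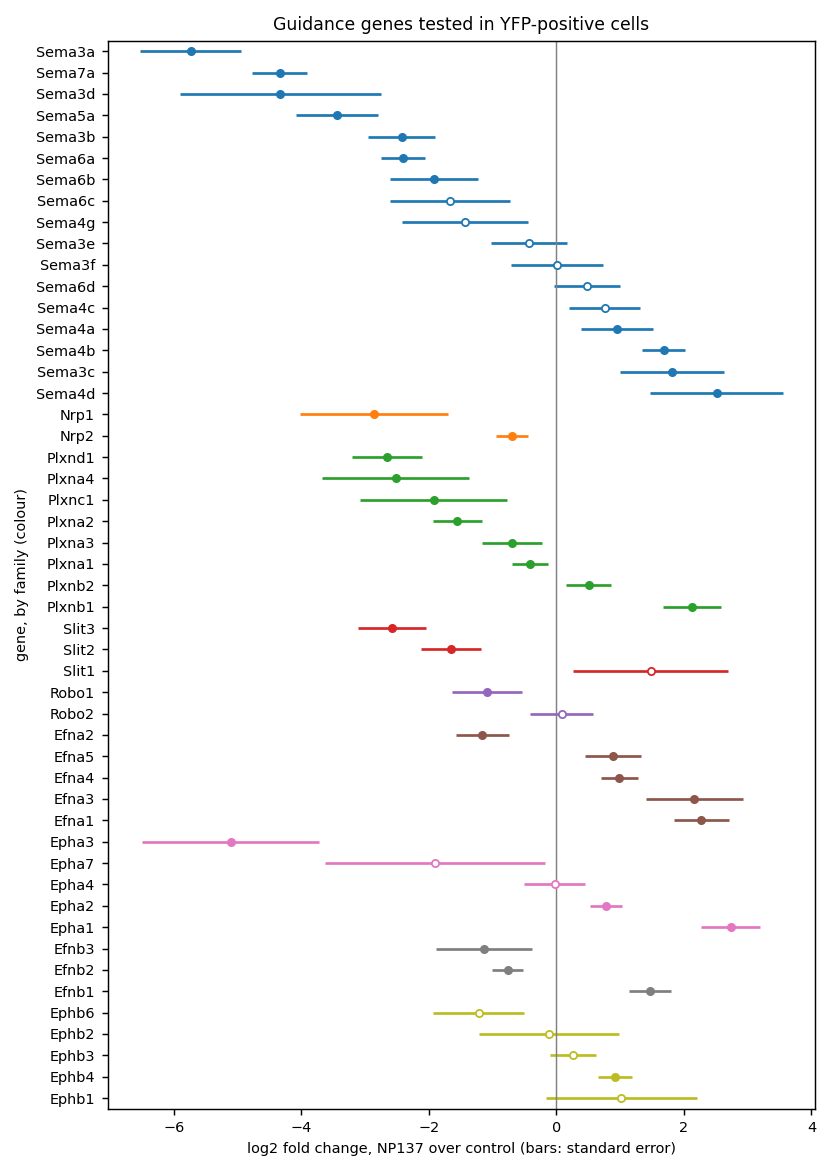
Log2 fold change, NP137 over control, of the 50 guidance genes tested in YFP-positive cells (edgeR, bars are standard errors), grouped by family in colour. Filled points mark genes whose NP137 libraries lie outside the range of the control libraries. Sema3a stands lowest at -5.74 and Epha1 highest at 2.73.

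Among the 20 semaphorins 17 were tested, with 3 higher and 7 lower past 2-fold without overlap, beside 10.9% and 16.7% of all genes. Sema3a, a secreted repellent that signals through neuropilin-1 and A-type plexins, had 1.56 and 0.335 CPM in NP137, against 40.5 and 65.9 CPM in control. These values rest on 40 and 5 UMIs in NP137 and 2147 and 2397 UMIs in control. The groups lay far apart, with a log2 fold change of -5.74 ± 0.79 (SE) and an adjusted p of 0.0739 (edgeR). Without NP137 1 the log2 fold change was -7.37 and the adjusted p 0.0264.

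Sema7a, a membrane-anchored semaphorin that binds plexin-C1 and an integrin, had 3.27 and 2.01 CPM in NP137, against 43.3 and 64.8 CPM in control. Its log2 fold change was -4.34 ± 0.43 with an adjusted p of 0.0718 (edgeR), the smallest of the 50 genes. Sema5a, a membrane semaphorin with thrombospondin repeats, had 9.35 and 2.75 CPM in NP137, against 63.8 and 68.8 CPM in control. Both genes were low in each NP137 library and high in each control library. For Sema5a the log2 fold change was -3.44 ± 0.64 with an adjusted p of 0.0889 (edgeR), and -4.66 without NP137 1. Sema6a, a membrane ligand of plexin-A2 and plexin-A4, had 3.31 and 3.28 CPM in NP137, against 16.0 and 19.0 CPM in control (log2 fold change -2.40 ± 0.35, edgeR adjusted p = 0.0742).

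The 3 semaphorins on the other side were Sema4b, Sema4d and Sema3c. Sema4b, a membrane semaphorin of epithelia, had 48.0 and 72.4 CPM in NP137, against 21.3 and 16.1 CPM in control (log2 fold change 1.68 ± 0.34, edgeR adjusted p = 0.0937). Sema4d had 11.8 and 17.3 CPM in NP137, against 4.55 and 0.495 CPM in control. The lowest Sema4d value, control 2, rests on 18 UMIs, and the log2 fold change of 2.52 ± 1.04 became 4.87 without control 1 and 1.68 without control 2. Sema3c, a secreted ligand of neuropilins, had 62.2 and 151 CPM in NP137, against 49.4 and 11.4 CPM in control. NP137 1 and control 1 lay close together for Sema3c, and its adjusted p was 0.269 (edgeR). The log2 fold change of Sema3c was 1.81 ± 0.82, 3.23 without control 1 and 1.04 without NP137 2.

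Among the receptors of semaphorins, neuropilin-1 varied widely between the NP137 libraries. Nrp1, which binds Sema3a and also vascular endothelial growth factor, had 18.2 and 1.21 CPM in NP137, against 77.3 and 65.3 CPM in control. Both NP137 libraries were below control. The log2 fold change of Nrp1 was -2.86 ± 1.16 with an adjusted p of 0.232 (edgeR), -5.95 without NP137 1 (adjusted p = 0.0264) and -1.97 without NP137 2. Nrp2, its relative, had 74.2 and 96.3 CPM in NP137, against 137 and 140 CPM in control, a log2 fold change of -0.70 ± 0.25.

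Of 9 plexins 8 were tested, with 1 higher and 4 lower past 2-fold without overlap, beside 10.9% and 16.7% of all genes. Plxna2, a receptor of Sema6a, had 6.43 and 5.09 CPM in NP137, against 13.8 and 20.1 CPM in control. Its log2 fold change was -1.55 ± 0.38 with an adjusted p of 0.115 (edgeR). Plxnb1 and Plxnd1 lie outside the naming rule and were singled out after their values were seen. Plxnb1, the receptor of Sema4d, had 11.0 and 8.50 CPM in NP137, against 2.62 and 1.82 CPM in control (log2 fold change 2.13 ± 0.46). Plxnd1 had 1.21 and 2.28 CPM in NP137, against 13.4 and 8.45 CPM in control (log2 fold change -2.66 ± 0.55). Plxnb1 and its ligand Sema4d thus both stood higher in NP137. Plxnb2, which also binds class 4 semaphorins, had 83.1 and 88.9 CPM in NP137, against 78.1 and 43.1 CPM in control, and Plxna1 had 21.7 and 21.8 CPM in NP137, against 33.0 and 25.0 CPM in control. Neither reached 2-fold.

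The 3 Slits were tested, with 2 lower past 2-fold without overlap, beside 16.7% of all genes. Slit2 had 19.0 and 8.17 CPM in NP137, against 39.4 and 46.4 CPM in control (log2 fold change -1.66 ± 0.47, edgeR adjusted p = 0.135), and -2.46 without NP137 1. Slit3 had 3.70 and 2.14 CPM in NP137, against 11.9 and 23.1 CPM in control (log2 fold change -2.57 ± 0.53, edgeR adjusted p = 0.0963). Slit1 stayed under 2 CPM in every library. Robo1, a Slit receptor, had 10.6 and 4.02 CPM in NP137, against 17.7 and 13.6 CPM in control. The Robo1 difference was small beside its spread, at -1.09 ± 0.55 and an adjusted p of 0.304 (edgeR), -2.02 without NP137 1 and -0.56 without NP137 2. Robo2 overlapped between the groups, at 21.6 and 11.6 CPM in NP137 and 11.0 and 20.5 CPM in control.

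All 8 ephrins were tested, with 3 higher and 2 lower past 2-fold without overlap, beside 10.9% and 16.7% of all genes. Efnb1, a membrane ephrin of the EphB receptors, had 135 and 157 CPM in NP137, against 65.4 and 40.1 CPM in control. Its log2 fold change was 1.47 ± 0.33 with an adjusted p of 0.103 (edgeR). Efna1, the lipid-anchored ligand of EphA2, had 42.9 and 44.1 CPM in NP137, against 12.2 and 5.83 CPM in control. The NP137 libraries were alike and both above control, with a log2 fold change of 2.27 ± 0.43 and an adjusted p of 0.0900 (edgeR). Efna4 had 21.7 and 22.5 CPM in NP137, against 11.0 and 11.3 CPM in control, and Efna5 had 31.8 and 47.3 CPM in NP137, against 28.5 and 14.3 CPM in control. Efnb2, the ephrin of arteries, was lower, with 30.2 and 31.1 CPM in NP137, against 50.2 and 53.9 CPM in control (log2 fold change -0.76 ± 0.24).

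Epha1, an epithelial Eph receptor, had 15.1 and 19.4 CPM in NP137, against 3.32 and 1.84 CPM in control. Its log2 fold change of 2.73 ± 0.46 was the highest of the 50 genes (edgeR adjusted p = 0.0822). Epha2, the main receptor of Efna1 in epithelia, had 103 and 86.6 CPM in NP137, against 60.7 and 50.4 CPM in control, a log2 fold change of 0.77 ± 0.25. For both receptors the NP137 libraries lay above the control libraries. Ephb4, the receptor of Efnb2, had 38.7 and 41.0 CPM in NP137, against 23.3 and 18.9 CPM in control, a log2 fold change of 0.92 ± 0.27. Of 10 Eph receptors tested 1 was higher and 1 lower past 2-fold without overlap, beside 10.9% and 16.7% of all genes. These were Epha1 and Epha3, the second named after its values were seen. None of the 5 EphB receptors passed 2-fold without overlap.

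**Figure D3:**
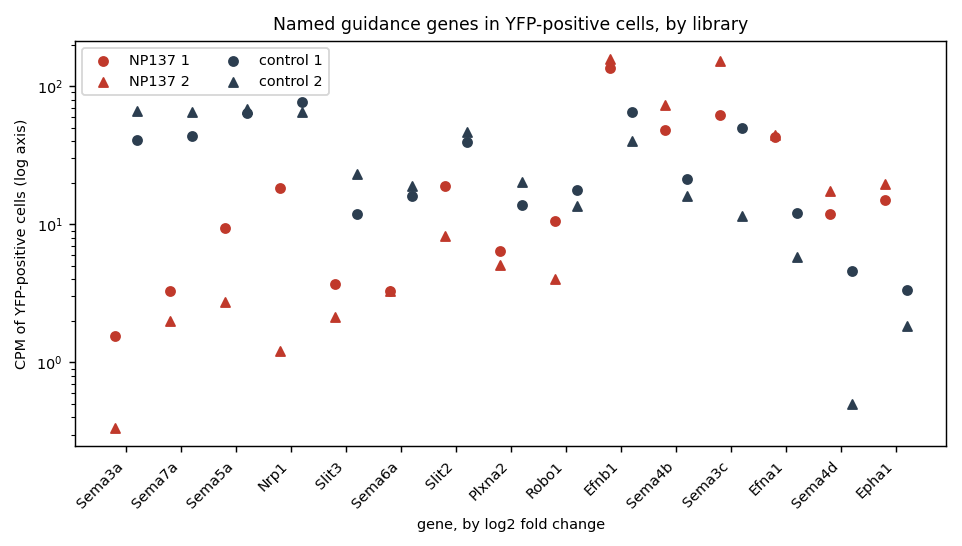
Level in YFP-positive cells (CPM on a log axis) of the 15 guidance genes that differ at least 2-fold without overlap and reach 10 CPM in at least 2 libraries, 1 point per library. NP137 points (red) stand left of control points (dark) for each gene. The 9 genes from Sema3a to Robo1 have both NP137 points below both control points, and the 6 from Efnb1 to Epha1 have both above.

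Markers of the epithelial and fibroblast lists moved with these differences. The 11 epithelial markers summed to 17274 and 20455 CPM in NP137 YFP-positive cells and 2324 and 752 CPM in control, with 1 marker at 0 in NP137 2 and none at 0 elsewhere. The 8 fibroblast markers summed to 261 and 552 CPM in NP137 and 7812 and 5351 CPM in control, and none was at 0. Blood endothelial markers summed to 39.0 CPM or less in every library. The part of the epithelial and fibroblast markers in the guidance gene differences was not tested.

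The levels could be read cluster by cluster within a library, as a description, in the clusters of at least 50 cells. In the cluster led by Mme and H19, with Vim high and Epcam low, Sema3a stood at 56.0 CPM in NP137 1 (99 cells, 24 UMIs), against 52.6 CPM in control 1 (3932 cells) and 61.7 CPM in control 2 (54 cells). In the cluster led by Wfdc2 and Krt90, with Epcam high, Sema3a stood at 0.196 CPM in NP137 1 (2288 cells, 4 UMIs) and 0 CPM in NP137 2 (89 cells, 0 UMIs), against 1.53 CPM in control 1 (274 cells, 6 UMIs). The NP137 1 value of the Mme and H19 cluster lay between those of the control libraries, while the clusters lay far apart within NP137 1 and within control 1. Yet the NP137 1 cells of the Mme and H19 cluster differed from its control cells in depth and some markers. Their median was 2998 UMIs, against 7298 and 20505 in control. Krt14 stood at 940 CPM, against 174 and 151 CPM in control. Fn1 stood at 856 CPM against 2882 and 2239 CPM, and Pdgfra at 67.7 CPM against 193 and 480 CPM. Vim was closer, at 6824 CPM against 6084 and 4998.5 CPM. The part of these differences was not tested. Of the 99 and 274 cells, 1 and 2 share a barcode with the other of these libraries. Sema7a followed the same order, at 35.0 CPM in NP137 1 against 52.6 and 42.0 CPM in control in the Mme and H19 cluster, and 1.17 and 0 CPM in NP137 against 1.78 CPM in control 1 in the Wfdc2 and Krt90 cluster.

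Efnb1, Efna1 and Epha1 ran the other way between the clusters. Efnb1 stood at 132 and 99.8 CPM in NP137 and 188 CPM in control 1 in the Wfdc2 and Krt90 cluster, and at 70.0 CPM in NP137 1 and 52.7 and 24.7 CPM in control in the Mme and H19 cluster. Efna1 stood at 47.4 and 33.0 CPM in NP137 and 44.0 CPM in control 1 in the Wfdc2 and Krt90 cluster, and at 4.67 CPM in NP137 1 and 9.30 and 13.2 CPM in control in the Mme and H19 cluster. Epha1 stood at 18.4 and 21.4 CPM in NP137 and 22.1 CPM in control 1 in the first of these clusters, and at 0 CPM in NP137 1 and 2.12 and 2.47 CPM in control in the other. In the Wfdc2 and Krt90 cluster control 1 thus lay above both NP137 libraries for Efnb1 and Epha1 and between them for Efna1. Sema5a differed more within a cluster, at 21.0 CPM in NP137 1 (9 UMIs) against 76.7 and 118 CPM in control in the Mme and H19 cluster. A cluster led by Fxyd2 and Rbp4, with Vim high and Epcam low, held 530 cells of NP137 1 and 78 of control 1. Its Sema3a level was 1.62 CPM in NP137 1 and 3.53 CPM in control 1, and its Efnb1 level was 117 CPM in NP137 1 and 163 CPM in control 1. Vim was thus high in a cluster where Sema3a was low.

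**Figure D4:**
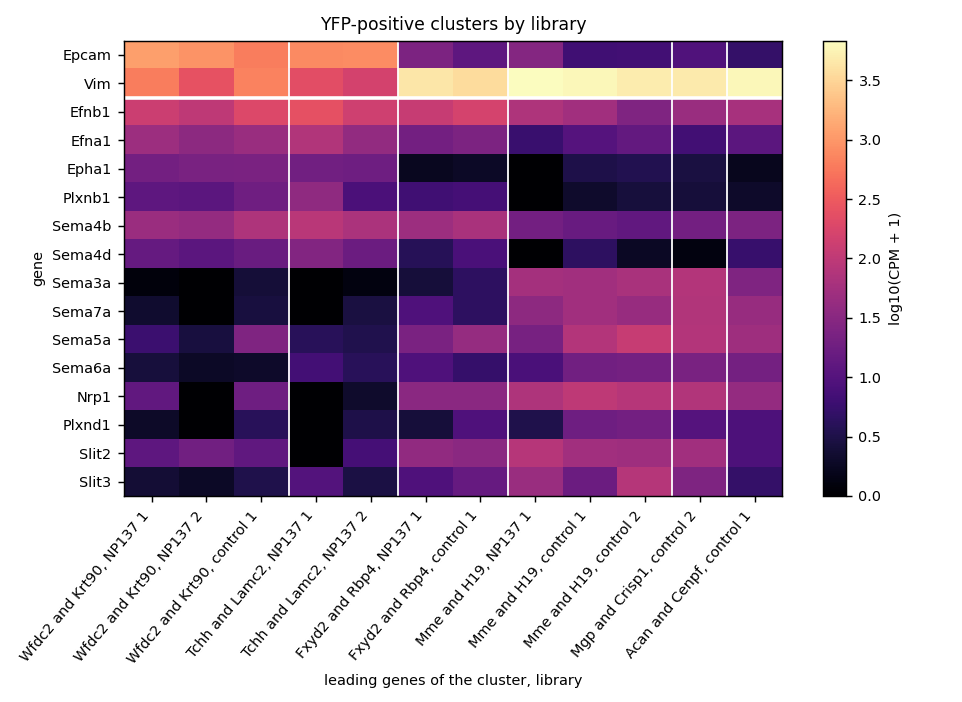
Level (log10 of CPM plus 1, colour) of 14 guidance genes, with Epcam and Vim on top, in YFP-positive clusters of at least 50 cells, by cluster and library. White vertical lines part the clusters, and NP137 libraries stand left of control libraries. Sema3a is bright in the Mme and H19 cluster in all 3 libraries shown and dark in the Wfdc2 and Krt90 cluster in all 3, at 56.0 CPM in NP137 1 and 52.6 CPM in control 1 in the first.

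The levels were also read within the cells of NP137 1 that had 1 kind of sex-linked UMI. In its YFP-positive cells Sema3a stood at 0.548 CPM in the 434 cells with Xist UMIs alone and 1.76 CPM in the 1105 cells with Y-linked UMIs alone. Efnb1 stood at 138 and 130 CPM in the same cells. Both Sema3a values lie below those of the controls and both Efnb1 values above them.

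Counted by cell after thinning each cell to 2000 UMIs, Sema3a had a UMI in 0.361% (exact 95% interval 0.173 to 0.664) and 0.118% (0.003 to 0.657) of YFP-positive cells of NP137, against 10.3% (9.42 to 11.3) and 11.4% (9.64 to 13.4) in control. As background, the macrophage or monocyte-like class gave 0% (interval up to 0.573) and 0.053% in NP137 and 0.807% and 0.676% in control. Median depths before thinning were 8629 and 18425 UMIs in NP137 and 8280 and 27511 in control for YFP-positive cells, and 2065.5 and 5523 in NP137 and 3810 and 9118 in control for macrophage or monocyte-like cells. The Sema3a share of the NP137 tumour cells was thus near that background, and the control share above it. Unthinned shares were 1.01% and 0.566% in NP137 and 30.9% and 71.1% in control.

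Efnb1 had a UMI in 22.3% and 24.6% of thinned YFP-positive cells of NP137, against 10.9% and 9.57% in control, and in 1.87% and 0.954% of macrophage or monocyte-like cells of NP137 and 2.02% and 1.69% of control. Nrp1 had a UMI in 3.94% and 0.236% of thinned YFP-positive cells of NP137, against 17.6% and 11.8% in control. Neutrophil-like cells gave 4.59% and 1.37% for Nrp1 in NP137 and 1.57% and 2.38% in control. The 4.59% of NP137 1 rests on 5 of 109 thinned cells (exact interval 1.51 to 10.4), and the unthinned share was 0.709%. It is thus too uncertain to rank against the 3.94% of YFP-positive cells of NP137 1. The intervals cover counting error only. Thinning left out 214 and 37 YFP-positive cells of NP137 and 442 and 15 of control. It left out 2288 and 1883 neutrophil-like cells of NP137 and 795 and 25 of control.

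Fibroblast-like cells were used to ask whether the differences were larger in tumour cells than in this part of the stroma. Outside this class were the clusters led by Gzme and Gzmd (2516 cells) and by Actg2 and Tagln (1788 cells). Both scored highest for the fibroblast list but stayed unnamed. The NP137 effect in YFP-positive cells minus that in fibroblast-like cells was tested in 1 model with a term for each library. The fibroblast-like class was made of different clusters in different libraries. The cluster led by Lbp and Clec3b held 42 of 858 cells of NP137 1 and 1354 of 1646 of NP137 2, against 51 of 550 of control 1 and 4 of 210 of control 2, and the cluster led by Coch and Apod held 669 and 15 cells of NP137 and 251 and 147 of control. Its part in the fibroblast-like values was not tested. Of 52 guidance genes tested 2 passed, Sema3a and Sema5a, beside 0.607% of all 14835 genes, and 18 had an unadjusted p under 0.05, beside 13.6%. Sema3a had 22.0 and 3.63 CPM in NP137 fibroblast-like cells, against 25.8 and 29.4 CPM in control, so that NP137 1 was near control. The difference of effects for Sema3a was -4.56 ± 0.48 on the log2 scale (edgeR adjusted p = 0.0300). Sema5a had 47.5 and 16.7 CPM in NP137 fibroblast-like cells, against 39.5 and 37.2 CPM in control, with overlap. Its difference of effects was -3.25 ± 0.39 (edgeR adjusted p = 0.0363).

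These 2 calls depend on the library term and, for Sema5a, on control 2. With no term for the library neither passed (adjusted p = 0.271 and 0.279), and without control 2 the adjusted p of Sema5a was 0.0651. Without NP137 1 there were 6 calls, where 6.93% of all genes were called. Sema7a, lower in both classes, did not pass the test of the difference (-1.80 ± 0.43, edgeR adjusted p = 0.144). It had 13.9 and 4.98 CPM in NP137 fibroblast-like cells, against 41.1 and 58.1 CPM in control.

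In the 7 other classes no guidance gene passed edgeR's adjusted test, where 0% of all genes passed in each class. DESeq2 called 0 of them too, beside 0.313% of all genes in T or NK-like, 0% in blood endothelial-like, 1.75% in epithelial-like, 0.325% in fibroblast-like, 0.0532% in macrophage or monocyte-like, 0.161% in neutrophil-like and 0.0904% in pericyte or smooth muscle-like cells. DESeq2 gave no adjusted p for 36 of 42 genes in epithelial-like, 34 of 39 in fibroblast-like, 19 of 27 in neutrophil-like and 5 of 10 in T or NK-like cells. At an unadjusted p under 0.05 in edgeR there were 7 of 42 genes in epithelial-like cells (7.89% of all genes), 1 of 39 in fibroblast-like cells (2.91%) and 2 of 25 in blood endothelial-like cells (8.34%). There were 3 of 28 in macrophage or monocyte-like cells (3.86%), 4 of 27 in neutrophil-like cells (4.11%), 3 of 21 in pericyte or smooth muscle-like cells (3.84%) and 2 of 10 in T or NK-like cells (7.66%). The median log2 fold change of the genes tested lay below 0 in all 7 classes, from -0.70 in neutrophil-like to -0.27 in blood endothelial-like cells, where the median of all genes lay between -0.03 and 0.01. A library left out moved these medians widely. The median was -0.046 in neutrophil-like cells without control 2. Macrophage or monocyte-like cells had -1.08 without NP137 1 and -0.11 without control 1. Fibroblast-like cells had -0.11 without NP137 2. Without control 1 the median was -0.12 in T or NK-like, -0.094 in blood endothelial-like and -0.24 in epithelial-like cells. With any library left out, the medians of the 7 classes lay between -1.08 and -0.046. The 7 classes come from the same 4 libraries, so their medians are not independent of each other. Here too a gene that passed the filter through its control level alone was bound to be lower.

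Most guidance genes of blood endothelial-like cells overlapped between NP137 and control. Of 25 genes tested 1 was higher and 7 lower without overlap, where 43.5% of all genes did not overlap, and of the 14 genes at 50 CPM or more 9 overlapped. Plxnd1 had 243 and 452 CPM in NP137, against 529 and 310 CPM in control. Nrp1 had 319 and 377 CPM in NP137, against 419 and 371 CPM in control. Sema3f had 230 and 253 CPM in NP137, against 328 and 212 CPM in control. All 3 overlap. So did Sema6d with 175 and 297 CPM in NP137 and 181 and 205 CPM in control. Nrp2 had 188 and 159 CPM in NP137, against 226 and 144 CPM in control. Sema7a had 103 and 183 CPM in NP137, against 191 and 143 CPM in control. Sema7a, low in NP137 tumour cells, thus stood above 100 CPM here in each NP137 library. Plxna2 had 99.6 and 117 CPM in NP137, against 147 and 108 CPM in control. Sema4c had 38.7 and 63.8 CPM in NP137, against 89.3 and 47.5 CPM in control. Sema6b had 63.8 and 48.0 CPM in NP137, against 102 and 50.2 CPM in control, so these 3 overlapped as well.

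The other 5 endothelial genes had groups that did not overlap, with adjusted p of 0.589 to 0.659 (edgeR). Efnb2 had 143 and 198 CPM in NP137, against 261 and 276 CPM in control (log2 fold change -0.65 ± 0.24). Sema6a had 74.5 and 90.9 CPM in NP137, against 111 and 179 CPM in control (-0.81 ± 0.29). Robo4 had 131 and 175 CPM in NP137, against 231 and 188 CPM in control (-0.45 ± 0.24). These 3 and Plxnb2 were lower in NP137. Plxnb2 had 54.2 and 39.8 CPM in NP137, against 65.9 and 68.9 CPM in control. Efna1 was the higher one, with 177 and 237 CPM in NP137, against 162 and 167 CPM in control.

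Epithelial-like cells came from clusters with a YFP UMI in 24.5% and 36.2% of cells, below the 50% set for YFP-positive clusters. Whether they included recombined cells was not tested. They numbered 2912 and 123 cells in NP137 and 290 and 1076 in control. Of 42 genes tested in them 3 were higher and 18 lower without overlap, where 44.2% of all genes did not overlap. In this class 7 genes reached 50 CPM. Efnb2 had 66.6 and 66.5 CPM in NP137, against 108 and 134 CPM in control (log2 fold change -0.87 ± 0.27, edgeR adjusted p = 0.622). Efna1 had 65.4 and 46.0 CPM in NP137, against 70.1 and 110 CPM in control. Ephb6, an Eph receptor without kinase activity, had 34.8 and 8.09 CPM in NP137, against 56.3 and 54.4 CPM in control. These 3 were lower in NP137 without overlap. Efnb1 overlapped, at 71.3 and 106 CPM in NP137 and 97.0 and 72.9 CPM in control. Epha2 had 65.3 and 87.7 CPM in NP137, against 78.2 and 41.8 CPM in control. Sema3c had 55.0 and 77.1 CPM in NP137, against 65.7 and 44.0 CPM in control. Plxnb2 overlapped as well, at 79.8 and 105 CPM in NP137 and 127 and 61.4 CPM in control.

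Fibroblast-like cells had 5 genes at that level, and all 5 overlapped. Of 39 genes tested 1 was higher and 11 lower without overlap, where 32.8% of all genes did not overlap. Slit3 had 267 and 210 CPM in NP137, against 282 and 213 CPM in control. Slit2 had 107 and 28.5 CPM in NP137, against 194 and 50.7 CPM in control, with replicate 1 higher than replicate 2 in both groups. Nrp1 had 112 and 70.3 CPM in NP137, against 106 and 135 CPM in control. Nrp2 was low in NP137 2 only, at 51.0 and 12.3 CPM in NP137 and 48.9 and 52.3 CPM in control. Plxnb2 had 73.0 and 73.1 CPM in NP137, against 94.6 and 52.7 CPM in control.

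Pericyte or smooth muscle-like cells had 7 genes at that level, 3 of them lower in NP137 without overlap. Of 21 genes tested 11 were lower and none higher without overlap, where 34.1% of all genes did not overlap. Nrp1 had 126 and 137 CPM in NP137, against 182 and 258 CPM in control (log2 fold change -0.74 ± 0.24, edgeR adjusted p = 0.964). Plxnd1 had 43.9 and 52.7 CPM in NP137, against 66.4 and 68.8 CPM in control, and Sema4c had 54.7 and 41.4 CPM in NP137, against 68.9 and 58.4 CPM in control. The other 4 overlapped. Sema6d had 70.7 and 102 CPM in NP137, against 100.1 and 142 CPM in control. Plxnb2 had 126 and 82.5 CPM in NP137, against 194 and 71.2 CPM in control. Nrp2 had 72.9 and 97.2 CPM in NP137, against 83.7 and 98.4 CPM in control, and Slit3 had 92.2 and 64.7 CPM in NP137, against 77.9 and 66.4 CPM in control.

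Immune cells held few guidance genes at 50 CPM. Without overlap, 2 were higher and 9 lower of 28 in macrophage or monocyte-like cells (33.6% of all genes did not overlap), 3 higher and 10 lower of 27 in neutrophil-like cells (31.6%) and 4 lower of 10 in T or NK-like cells (40.2%). In macrophage or monocyte-like cells Plxnd1 had 75.2 and 76.2 CPM in NP137, against 137 and 91.2 CPM in control, without overlap (log2 fold change -0.60 ± 0.27, edgeR adjusted p = 0.991). Nrp1 overlapped there, at 35.2 and 122 CPM in NP137 and 103 and 59.6 CPM in control. Nrp2 had 77.1 and 82.7 CPM in NP137, against 113 and 77.2 CPM in control. Plxnb2 overlapped too, at 75.5 and 105 CPM in NP137 and 117 and 102 CPM in control. In neutrophil-like cells Sema4d had 137 and 67.3 CPM in NP137, against 128 and 73.5 CPM in control. Sema4a, a semaphorin of antigen-presenting cells, had 85.7 and 90.9 CPM in NP137, against 91.5 and 40.8 CPM in control, and both neutrophil genes overlapped. T or NK-like cells had Sema4d at 78.9 and 94.5 CPM in NP137, against 92.1 and 76.6 CPM in control. Nrp1 had 26.3 and 56.8 CPM in NP137 T or NK-like cells, against 32.2 and 61.6 CPM in control. Sema6d was lower in both NP137 libraries without overlap, and lowest in NP137 2, at 68.7 and 6.53 CPM in NP137 and 111 and 132 CPM in control.

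In immune cells Sema3a and Sema7a were low, and both were picked here after their values were seen. Sema3a had 0.396 and 0.163 CPM in NP137 macrophage or monocyte-like cells, against 4.71 and 2.28 CPM in control. In neutrophil-like cells Sema3a had 0.444 and 0.900 CPM in NP137, against 5.20 and 7.15 CPM in control, and Sema7a had 1.33 and 5.85 CPM in NP137, against 10.9 and 20.4 CPM in control. None passed the adjusted test, and whether free RNA of tumour cells carried these UMIs was not tested.

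Partner genes of the 3 pathways were read from the same table of YFP-positive cells. Of 25 semaphorin and plexin partners 22 were tested, of 15 Slit and Robo partners 15, and of 17 ephrin and Eph partners 15, and edgeR's adjusted test called 0 of them. At DESeq2's adjusted threshold 7.19% of all genes were higher and 8.96% lower. Among semaphorin and plexin partners 1 was higher and 4 lower, among Slit and Robo partners 1 and 1, and among ephrin and Eph partners 2 and 3. The median log2 fold changes were -0.28, -0.53 and -0.03, beside -0.04 for all genes. Without overlap there were 4 higher and 7 lower among semaphorin and plexin partners, 2 and 10 among Slit and Robo partners, and 4 and 4 among ephrin and Eph partners, beside the 27.5% and 30.1% of all genes.

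Fyn, a Src-family kinase of plexin-A signalling, had 3.16 and 3.41 CPM in NP137, against 38.8 and 26.1 CPM in control (log2 fold change -3.30 ± 0.37, edgeR adjusted p = 0.0718). Farp1, an exchange factor that works with plexin-A, had 20.4 and 14.1 CPM in NP137, against 62.2 and 56.5 CPM in control (log2 fold change -1.78 ± 0.30). Srgap1, a GTPase-activating protein bound by Robo1, had 1.91 and 2.75 CPM in NP137, against 11.2 and 10.0 CPM in control (log2 fold change -2.19 ± 0.43). All 3 were lower in both NP137 libraries. Flrt3, a membrane protein that binds Robo1, was higher, with 100.4 and 170 CPM in NP137, against 50.5 and 23.7 CPM in control (log2 fold change 1.86 ± 0.49). Inppl1, a lipid phosphatase that binds EphA2, had 15.6 and 15.3 CPM in NP137, against 48.6 and 50.9 CPM in control (log2 fold change -1.69 ± 0.25). Chn1, a Rac regulator that acts after EphA4, had 4 and 1 UMIs in NP137, against 174 and 439 in control.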

How the data were processed

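Single-cell RNA of 4 live-sorted skin tumour samples was measured on 10x Genomics droplets, 2 NP137 and 2 control. A further allele that all the mice carry is not reported here. The deposited files hold raw UMI counts per gene and barcode, and the file headers name 10x software 3.0.2. The submitters' processing notes list mm10 and Seurat 3.1.5. The sources used here give neither aligner settings nor the cell-calling rule. Coordinates are those of GENCODE M21 and RefSeq GRCm38.p6.

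Barcodes needed 200 genes or more and less than 20% mitochondrial UMIs, and the highest Scrublet scores, 0.8% per 1000 barcodes, were removed as doublets. Leiden clusters (resolution 1) came from 2000 variable genes without the 60 guidance genes, with 30 components and 15 neighbours. A cluster took the name of its best marker set where at least 3 of its markers were detected in 10% of cells and its leading genes did not go against it. Where 50% or more of a cluster's cells had a YFP UMI it was called YFP-positive, whatever its markers.

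Sums of UMI counts by class and library were used where every library had 50 cells. The NP137 libraries were tested against control over all genes with edgeR's quasi-likelihood method (TMM, filterByExpr), 2-sided, with Benjamini-Hochberg adjustment at 0.05. CPM in comparisons carry TMM factors, while levels across classes and clusters are plain CPM. Genes named in YFP-positive cells differ at least 2-fold without overlap and reach 10 CPM in 2 libraries, or reach 20 CPM in 2 libraries. In other classes they reach 50 CPM in 2 libraries. Of partners the 2 of smallest p per list are named. The members, lists and rules were chosen with earlier results of these data known.

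Alternatives were DESeq2, edgeR with its size factors, all genes unfiltered, a replicate block, each library left out, 500 genes and 10% mitochondrial UMIs, no doublets removed, resolution 2, cells with YFP and Cdkn2a UMIs, thinning to 1000 UMIs or none, and means over cells. Fits were tested on simulated data. Intervals are exact binomial (Clopper-Pearson). Python 3.11.15, scanpy 1.11.5, leidenalg 0.10.2, R 4.3.3, edgeR 4.0.16 and DESeq2 1.42.0 were used.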

Additional observations from a re-analysis of the deposited data

Results flagged for a closer look

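The NP137 effect differed between YFP-positive and fibroblast-like cells for 2 guidance genes by a test of the difference itself. For Sema3a the effect in YFP-positive cells minus that in fibroblast-like cells was -4.56 on the log2 scale (SE 0.48, edgeR adjusted p = 0.0300), and for Sema5a it was -3.25 (SE 0.39, edgeR adjusted p = 0.0363). Both effects were lower in tumour cells, and both calls were lost with no term for the library.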

How the results depend on the processing

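The count of guidance genes past the adjusted threshold in YFP-positive cells was 0 with edgeR, 19 with DESeq2, also 19 with DESeq2 without NP137 1 (chosen after seeing the data), 14 with no filter on low counts and 0 to 4 with a library left out. The 2-fold counts ran from 9 to 16 (higher) and 16 to 25 (lower) with a library left out, beside 8 and 18. In YFP-positive cells the fit with no filter called 1183 of 21787 genes. Other classes had 0. With no filter there was 1 in T or NK-like (230 of 15938 genes called) and 1 in epithelial-like cells (261 of 19174). There were 5 in fibroblast-like (252 of 18772) and 1 in macrophage or monocyte-like cells (86 of 18396). The fits without NP137 1, where the NP137 group held 1 library, also had calls in T or NK-like and epithelial-like cells, all lower in NP137. The difference between YFP-positive and fibroblast-like cells had 2 calls, 4 with no filter, 0 with no replicate block (no library term) and 1 to 6 with a library left out. Among all genes this difference had 90 calls of 14835, 522 of 22341 with no filter and 9 of 14835 with no library term. Each fit with a library left out had 1 library in a group, which limits what its calls show. Robo2 in YFP-positive cells, 0.081 in all 4 libraries and at most 0.60 with a library left out, changed sign, at -0.51 without NP137 1 (-0.41 with DESeq2), -0.29 without control 1 and -0.051 in cells with YFP and Cdkn2a UMIs. The cause was not tested.

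Deviations from the group mean of same-numbered libraries had a correlation of 0.027 in YFP-positive cells, and from -0.071 to 0.197 over the 8 classes. With 2 libraries per group these deviations mirror each other. A low correlation thus does not settle whether the replicate numbers pair the samples. With the replicate number as a block 0 guidance genes passed in YFP-positive cells. Depth limits genes at few UMIs, such as Sema3a in NP137.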
